A study of Mus musculus with 72 samples.

Results

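7 genes with higher read counts in testes of 39-week-old IVF-conceived males than in testes of naturally conceived males (naturals) were followed through every RNA-Seq library of the series. The genes were 4930401O12Rik, Smim10l1, LOC108167731, Gm7073, 4933427I22Rik, Slc1a7 and LOC108167969, which are 7 of the 35976 gene symbols in the 39-week table and 7 of the 20083 that passed its filter on low counts. They were chosen by their counts in the 39-week libraries, as the top rises of that table, so the 39-week difference itself is given as a description without a test. Only the other tables were used to test these genes.

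The study asked how IVF affects the testes of male offspring (F1) and the tissues of their own offspring (F2). F1 mice came from CF-1 females and SJL/B6 males heterozygous for a GFP transgene. Naturals were conceived by mating and were not transferred as embryos, whereas IVF offspring came from superovulated females, were cultured to the blastocyst stage and were transferred to pseudopregnant CF-1 females. Pups of both groups that were kept to adulthood were delivered by caesarean section, naturals at E18.5 and IVF pups slightly later, and fostered. F1 testes were collected from fetuses at E18.5 (4 naturals and 6 IVF), at 12 weeks (5 and 5) and at 39 weeks (4 and 6). F2 mice were the naturally delivered offspring of 12-week-old F1 males, natural or IVF-conceived, and wild-type CF-1 females, and testes (5 and 7), male livers (5 and 5), female livers (5 and 6) and ovaries (4 and 5) were collected at 12 weeks. IVF in these F1 mice includes superovulation, embryo culture, embryo transfer and, for adults, the later delivery, which cannot be told apart. CF-1 is an outbred stock and the sires carried SJL and B6 alleles, so animals of 1 group did not share a genotype. The labels do not name the litter of each animal, and p-values measure the spread between the libraries of a table.

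Of the 7 genes, 4 are annotated as long noncoding RNAs (4930401O12Rik, LOC108167731, 4933427I22Rik and LOC108167969), a class of transcripts without a long open reading frame that is abundant in male germ cells. Slc1a7 encodes the excitatory amino acid transporter EAAT5, a member of the SLC1 family that carries glutamate into cells with sodium and also conducts chloride, and which is best known from the retina. Smim10l1 is named for a small integral membrane protein, and Gm7073 is a predicted protein-coding gene on the X chromosome.

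Positions are on GRCm38.p6, from RefSeq. 4930401O12Rik has 3 exons in GENCODE (841 bases of transcript) and lies on the minus strand at chr13:31213410-31241086. Smim10l1 lies on the plus strand at chr6:133099150-133112089. LOC108167731, which the RefSeq table names Gm46161, lies on the minus strand at chr1:143734643-143739166, 0.058 kb from Glrx2 in RefSeq and inside the span that GENCODE gives Glrx2 on the opposite strand. Gm7073 lies on the minus strand at chrX:60436047-60456195. 4933427I22Rik lies on the minus strand at chr4:139926111-139943519 and overlaps the noncoding gene LOC102636380 on the plus strand. Slc1a7 has 11 exons (3007 bases of transcript) and lies on the plus strand at chr4:107968406-108013529. LOC108167969, named Gm46326 in the RefSeq table, lies on the plus strand at chr12:28045318-28056040. The 7 genes thus lie on 6 chromosomes. The sources used here do not give the strand setting of the read counting, so reads of 4933427I22Rik and LOC102636380, and of LOC108167731 and Glrx2, may not be fully told apart.

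The windows before the transcription starts of 4930401O12Rik, 4933427I22Rik and Slc1a7 are shown because adult testis libraries were far apart in the level of these 3 genes. In 4930401O12Rik (minus strand, chr13:31241037-31241336, 250 bases before the start and 50 after it) capitals mark the longest perfect tandem run, of 53 bases in units of AGTTCT from position 188 of the window. In 4933427I22Rik (minus strand, chr4:139933025-139933324, the second of 2 windows that RefSeq gives it) capitals mark TGACG, a part of the cAMP response element (CRE), at position 120 and the GC box GGGCGG at position 141. In Slc1a7 (plus strand, chr4:107968156-107968405, the 250 bases before the start) they mark GGGCGG at position 49 and the E-box CACGTG at position 191.
4930401O12Rik: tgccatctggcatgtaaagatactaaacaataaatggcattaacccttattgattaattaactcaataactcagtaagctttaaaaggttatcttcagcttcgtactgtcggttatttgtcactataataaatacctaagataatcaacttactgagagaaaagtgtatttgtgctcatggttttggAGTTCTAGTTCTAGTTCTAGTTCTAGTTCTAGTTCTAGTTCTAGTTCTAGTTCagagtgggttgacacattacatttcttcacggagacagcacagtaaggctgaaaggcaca
4933427I22Rik: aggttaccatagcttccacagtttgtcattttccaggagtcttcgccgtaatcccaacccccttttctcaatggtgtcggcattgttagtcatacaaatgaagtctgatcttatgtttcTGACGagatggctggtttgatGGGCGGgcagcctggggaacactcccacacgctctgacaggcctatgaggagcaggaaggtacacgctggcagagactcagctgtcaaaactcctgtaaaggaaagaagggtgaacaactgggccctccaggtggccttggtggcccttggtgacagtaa
Slc1a7: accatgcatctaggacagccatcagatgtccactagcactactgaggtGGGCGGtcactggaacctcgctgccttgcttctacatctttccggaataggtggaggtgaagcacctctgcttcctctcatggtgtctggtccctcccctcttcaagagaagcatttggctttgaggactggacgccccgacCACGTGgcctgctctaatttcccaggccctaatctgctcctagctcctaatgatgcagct
A perfect tandem run of 53 bases or more was found in 0.1% of the 32851 mouse promoter windows of the same length. GC bases made up 35.3% of the 4930401O12Rik window, against a median of 52.7% over all windows. Both strands of all 10 windows of the 7 genes were searched for 6 motifs. The E-box (CACGTG) was found only in the window of Slc1a7 and is held by 7.15% of all windows. The shorter CRE letters (TGACG, which are also part of the full element) were found only in 1 window of 4933427I22Rik and are held by 20.8% of all windows. The TATA box (TATAAA) was found only in 1 window of Gm7073, against 13.6% of all windows, and the full CRE (TGACGTCA) in none, against 1.79%. The GC box, in 35.7% of all windows, was found in Smim10l1, 4933427I22Rik and Slc1a7, and the CCAAT box, in 37.4%, in LOC108167731 and Gm7073. No motif searched was shared by all 7 genes.

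The series holds 72 libraries, with total counts from 543745 to 90441392 per library. Adult testes are the 32 libraries in which most of these genes were measured, with 11438213 to 27346141 counts each. At 39 weeks every IVF library was deeper (14033176 to 23318391 counts) than every natural (11438213 to 12705316), as also at E18.5 (8500054 to 15745480 against 2904727 to 4869139). Naturals 1 and 2 at 39 weeks differed from each other less than any other pair of that table (a chi-square of 1.54 per gene on halved counts, where sampling noise gives 1, against 5.56 to 31.9), and so did natural 1 and 2 (1.85) and IVF 3 and 4 (1.43) among F2 testes (others from 3.47), although each pair differed by more than sampling noise and all libraries were kept. Whether the libraries of such a pair came from the same animal is not given by the labels, and SDs, SEs and p-values count them separately. In male livers IVF 3 had 543745 counts, and the summed level of 12 spermatid markers reached 102 and 156 CPM in naturals 1 and 5, against 0.00 to 20.6 CPM in the others. Levels are given as CPM, the counts scaled to library size, with library sizes adjusted by TMM within each table. Each read of a pair was counted, so counting errors are wider than the counts imply.

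At 39 weeks each of the 7 genes was higher in all 6 IVF testes than in all 4 naturals. Such separation was found for 1.76% of the 20083 genes tested at this age, and here it follows from the choice of the genes. Genes were counted as differentially expressed (DEGs) where the adjusted p lay under 0.05 and the change exceeded 1.5-fold, and 0.00996% of all genes were DEGs at 39 weeks. In the order of the test 6 of the genes came first among all rises and LOC108167969 came eighth. The gene between them that is not followed here, Cpxcr1, had 17.6 ± 3.70 CPM (SD, n = 4) in naturals against 32.0 ± 1.61 CPM (SD, n = 6) in IVF, or 0.86 on the log2 scale (SE 0.14). The next below LOC108167969 was Gm732 with a log2 fold change of 0.81 (SE 0.15).

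4930401O12Rik was measured at 2.10, 2.27, 1.82 and 2.67 CPM in the naturals. In IVF testes it lay between 12.2 and 20.3 CPM, with a median of 18.48 CPM. No library was found in between. The means were 2.21 ± 0.354 CPM (SD, n = 4) and 17.9 ± 2.97 CPM (SD, n = 6), which differ by 3.01 on the log2 scale (SE 0.20).

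Smim10l1 was measured at 16.6, 19.8, 21.7 and 13.6 CPM in naturals and between 33.7 and 43.3 CPM (median 38.0) in IVF testes. The log2 fold change was 1.10 (SE 0.15). Its naturals spread more, relative to their mean, than those of LOC108167731, which lay at 4.65, 4.62, 5.14 and 4.85 CPM. In IVF testes LOC108167731 ranged from 8.54 to 13.8 CPM (median 11.4), with a log2 fold change of 1.22 (SE 0.18). Gm7073 had 8.38, 8.19, 10.4 and 10.7 CPM in naturals and 16.0 to 21.4 CPM (median 18.8) in IVF testes, with a log2 fold change of 0.98 (SE 0.15). LOC108167969 had 5.38, 6.54, 7.38 and 4.53 CPM in naturals and 11.1 to 20.04 CPM (median 13.3) in IVF testes, with a log2 fold change of 1.23 (SE 0.21). All 5 of these genes were read in every library of both groups, with 22 to 33 counts in the naturals for 4930401O12Rik and 51 or more counts in any library for the others.

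The other two genes were nearly silent in the naturals. 4933427I22Rik had 0, 1, 0 and 0 counts in naturals and 37, 63, 17, 26, 7 and 54 counts in IVF testes 1 to 6. Its summed counts per total counts were 87.9-fold higher in IVF testes, with a 95% exact interval of 15.6 to 3488 for counting error, or 7.71 to 1753 with counts halved. The fitted log2 fold change of 5.95 (SE 0.95) rests on the 1 count in natural 2, and without that library it was 7.89. Slc1a7 had 4, 0, 0 and 3 counts in naturals and 94, 148, 28, 85, 74 and 44 counts in IVF testes. In CPM this was at most 0.365 in naturals and 1.35 to 8.31 in IVF testes, with a log2 fold change of 4.82 (SE 0.77). The ratio of its summed counts was 29.1, with a 95% exact interval of 14.0 to 72.8, or 9.80 to 94.1 with counts halved. The intervals of both genes leave out the spread between animals. As these counts chose the genes, the intervals are no test of a difference. At the depth of these libraries, absence of 4933427I22Rik or Slc1a7 RNA in naturals cannot be told apart from a low level.

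**Figure D1:**
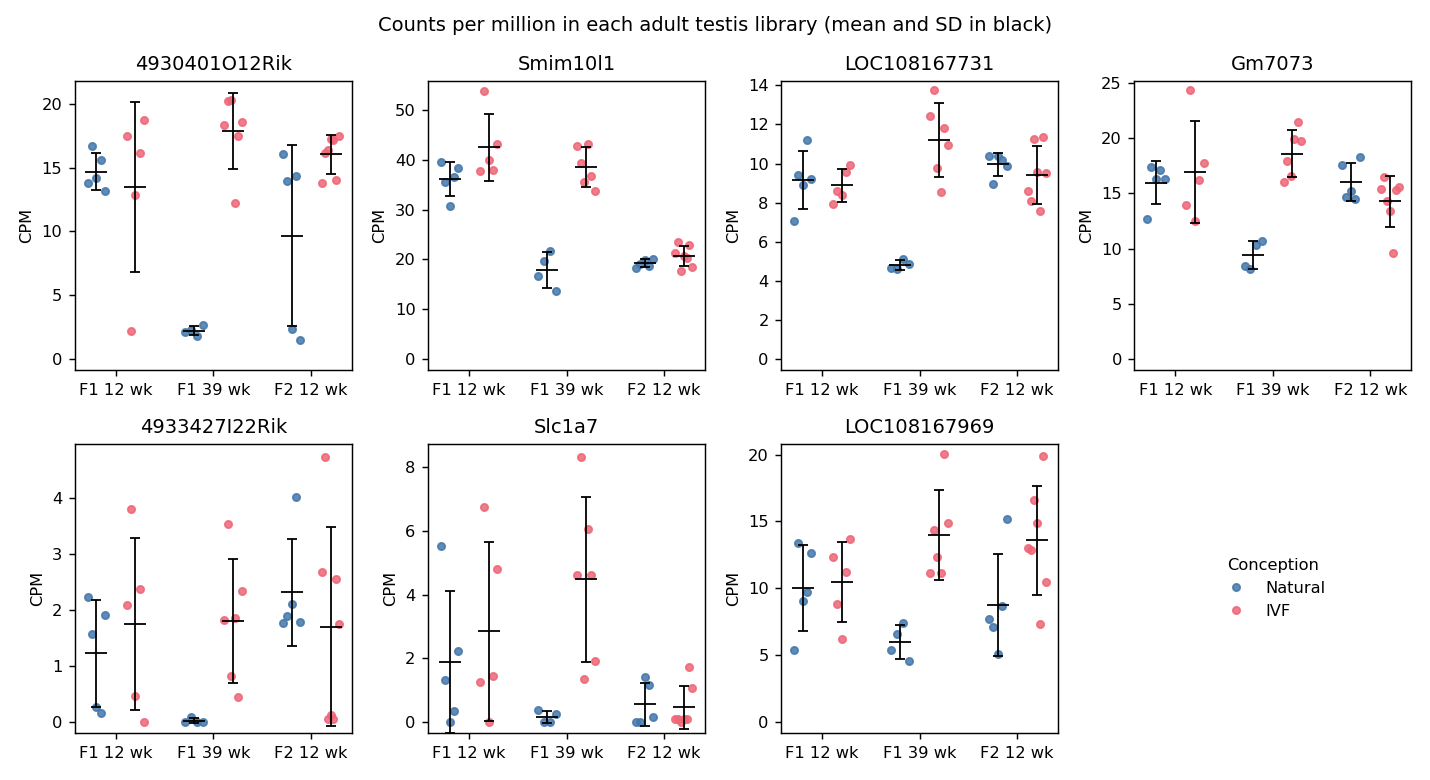
Level of each gene (vertical axes, CPM scaled within each table) in every adult testis library, by table and conception, where points are libraries and black bars are means with SD (cut off at the lower edge where they pass below 0). All 7 genes have their 39-week IVF libraries above their 39-week naturals, whereas the groups of every gene overlap at 12 weeks and in F2.

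Depth was higher in IVF libraries at this age. With all 39-week libraries thinned to the smallest one, the log2 fold changes were 3.01 for 4930401O12Rik, 1.08 for Smim10l1, 1.21 for LOC108167731, 1.02 for Gm7073, 5.79 for 4933427I22Rik, 4.74 for Slc1a7 and 1.29 for LOC108167969. With naturals 1 and 2 averaged to 1 library they were 3.00, 1.10, 1.19, 0.91, 7.89, 4.90 and 1.22 in the same order. Markers of testis cells were present in every group. Their summed level overlapped between groups in 39-week testes for spermatocytes (12 markers, 3156 to 3421 CPM in naturals and 3296 to 3891 CPM in IVF, 10 of 12 higher in IVF), spermatids (18377 to 33175 and 19215 to 26451 CPM, 7 of 12 higher), Leydig cells (657.3 to 1189 and 504 to 1142 CPM, 5 of 8 higher) and macrophages (56.4 to 78.6 and 55.1 to 78.7 CPM, 7 of 8 higher). Sertoli cell markers lay at 712 to 859 CPM in naturals and at 858 to 1100 CPM in IVF testes, with 6 of 10 markers higher in IVF. Fewer were higher in IVF among tested markers of spermatogonia (3 of 7), peritubular and smooth muscle (0 of 4), endothelium (2 of 4) and red cells (1 of 4). None of these markers was a DEG, but as only 0.00996% of all genes were at this age, this says little on cell composition. In whole testes, fewer cells of a type and less RNA per cell cannot be told apart, and the part of cell composition in the values of the 7 genes was not tested. Of 6 retina markers, which were checked because of Slc1a7, Crx had 0 counts in all 10 libraries, and the summed level was 7.30 to 14.4 CPM in naturals and 7.68 to 9.96 CPM in IVF testes.

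Levels at 39 weeks were set beside those at 12 weeks as a description, since the 39-week values chose the genes. The tables were normalized separately, but a common scaling of 12-week, 39-week and F2 testis libraries changed the CPM of a library only by factors of 0.977 to 1.04. Age and table cannot be told apart. In 5 of the 7 genes (4930401O12Rik, Smim10l1, LOC108167731, Gm7073 and 4933427I22Rik) all 39-week naturals lay below all 12-week naturals. This was so for 4.07% of 19619 genes tested in both tables, and for 50.6% of the 350 genes whose 39-week IVF libraries lay above all 39-week naturals, a set that holds these genes. The share of 5 in 7 is read against the second of these percentages, and nothing particular to the 7 genes is drawn from it.

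The 12-week naturals had a median level of 14.2 CPM for 4930401O12Rik, 6.51 times that of the 39-week naturals. The ratio of the 12-week to the 39-week natural median was 2.01 for Smim10l1, 1.94 for LOC108167731, 1.74 for Gm7073 and 1.64 for LOC108167969. For Slc1a7 it was 10.8, though 12-week naturals spanned 0.00 to 5.54 CPM. The 39-week IVF median was 1.04 to 1.37 times the 12-week natural median for the other 6 genes and 3.51 times for Slc1a7. Of the 42 values of the 7 genes in the 6 IVF testes at 39 weeks, 33 lay within the range of the 12-week libraries. For Smim10l1, LOC108167731 and Gm7073 the 39-week naturals lay below every 12-week library, natural or IVF, and for LOC108167731 they lay below every F2 testis as well.

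At 12 weeks none of the 7 genes was a DEG by edgeR or by DESeq2, where 0.199% of 20113 genes were by edgeR. 1 of the 7, Smim10l1, had an unadjusted p under 0.05, where 12.9% of all genes did. None had all IVF testes above all naturals, where 0.915% of genes did. 4930401O12Rik had 13.8, 16.7, 14.2, 15.6 and 13.2 CPM in naturals and 17.5, 2.23, 12.9, 16.1 and 18.7 CPM in IVF testes. All libraries but IVF 2 were thus at the level of the 39-week IVF testes, and IVF 2 was at that of the 39-week naturals. This gave a log2 fold change of -0.12 (SE 0.44, quasi-likelihood test of edgeR, Benjamini-Hochberg adjusted p = 0.940) and of 0.15 without IVF 2.

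Slc1a7 at 12 weeks had 5.54, 1.32, 0.00, 0.329 and 2.22 CPM in naturals and 1.24, 6.75, 0.00, 1.45 and 4.80 CPM in IVF testes. 4933427I22Rik had 2.23, 1.57, 0.256, 0.164 and 1.92 CPM in naturals and 2.08, 3.80, 0.469, 2.38 and 0.00 CPM in IVF testes. Both genes therefore varied from near 0 to several CPM within each group, as wide as the difference between the groups at 39 weeks. Their log2 fold changes were 0.59 (SE 1.15, edgeR adjusted p = 0.881, 95% interval -1.66 to 2.84) and 0.49 (SE 0.96, edgeR adjusted p = 0.880, interval -1.39 to 2.38), so that these data bound neither closely.

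Smim10l1 at 12 weeks ranged from 30.7 to 39.7 CPM in naturals and from 37.8 to 53.8 CPM in IVF testes, with a log2 fold change of 0.23 (SE 0.10, edgeR adjusted p = 0.350). Without 1 library in turn it ran from 0.13 to 0.28. LOC108167731 had a log2 fold change of -0.04 (SE 0.14, edgeR adjusted p = 0.937), Gm7073 of 0.09 (SE 0.16, edgeR adjusted p = 0.863) and LOC108167969 of 0.06 (SE 0.25, edgeR adjusted p = 0.948).

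**Figure D2:**
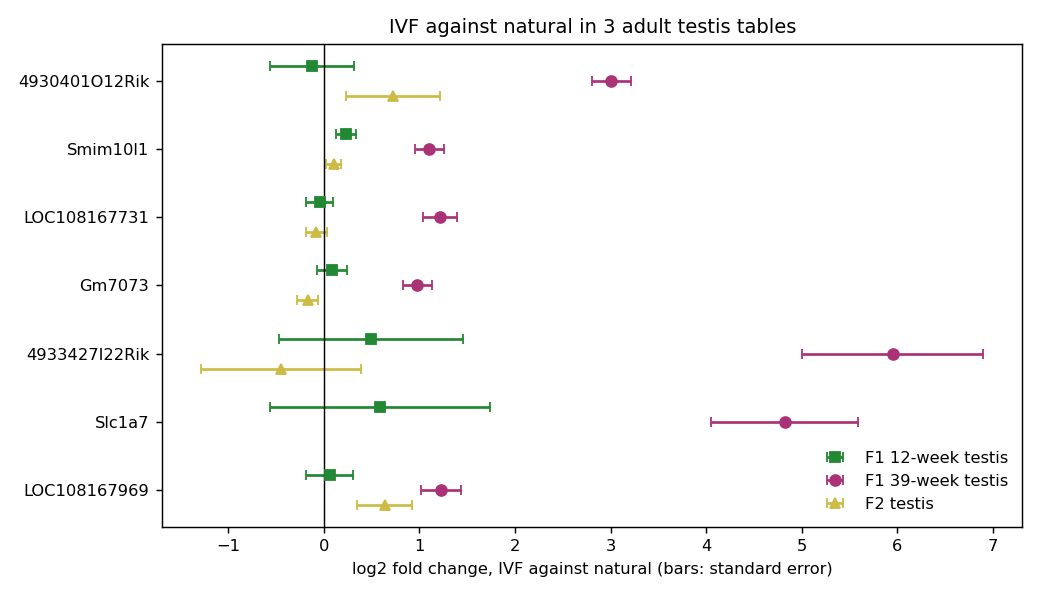
Log2 fold change of IVF against natural testes (horizontal axis, bars are standard errors) for each gene in the 12-week, 39-week and F2 tables, with no F2 value for Slc1a7, which had too few counts. The 39-week values, which chose the genes, lie between 0.98 and 5.95, and the 12-week and F2 values lie between -0.45 and 0.73.

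In testes of F2 males, none of the 6 genes with enough counts was a DEG by edgeR or DESeq2, where 0.914% of 21454 genes were by edgeR. 1 of the 6, LOC108167969, had an unadjusted p under 0.05, where 13.9% of all genes did. None had all 7 IVF libraries above all 5 naturals, where 1.04% of genes did. 4930401O12Rik again had a low and a high level, with 16.1, 13.9, 2.38, 14.3 and 1.53 CPM in F2 naturals. The IVF testes lay between 13.8 and 17.5 CPM (median 16.4). Here the low libraries were naturals 3 and 5, and the groups differed by 0.73 on the log2 scale (SE 0.49, edgeR adjusted p = 0.577).

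Smim10l1 lay at 18.3 to 20.1 CPM in F2 naturals and at 17.8 to 23.4 CPM in F2 IVF testes. All 12 F2 testes were therefore below all F1 testes at 12 weeks (30.7 to 53.8 CPM) and near the 39-week naturals, a difference between tables in which generation and table cannot be told apart. F2 groups differed by 0.10 on the log2 scale (SE 0.08, edgeR adjusted p = 0.608, 95% interval -0.05 to 0.26).

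LOC108167969 had 7.73, 7.12, 5.06, 8.70 and 15.1 CPM in F2 naturals and 7.31 to 19.9 CPM (median 13.0) in F2 IVF testes, with a log2 fold change of 0.64 (SE 0.29, edgeR adjusted p = 0.355). The groups overlapped, with natural 5 above 5 of the 7 IVF libraries. With each near-identical pair of F2 testes averaged to 1 library, the log2 fold change of LOC108167969 was 0.55 (SE 0.34). LOC108167731 had a log2 fold change of -0.08 (SE 0.11, edgeR adjusted p = 0.816) and Gm7073 of -0.17 (SE 0.11, edgeR adjusted p = 0.545). The lowest Gm7073 level, 9.59 CPM in IVF 5, was at the level of the 39-week naturals.

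4933427I22Rik lay at 1.77, 1.88, 2.11, 4.01 and 1.78 CPM in F2 naturals, with no natural near 0. In F2 IVF testes 3, 4 and 5 it had 1, 3 and 1 counts, and in the other 4 it lay between 1.74 and 4.73 CPM. The libraries with 3 counts or fewer were thus IVF libraries here and naturals at 39 weeks. IVF 5 and IVF 3 at 39 weeks were also low, with 7 and 17 counts. F2 IVF testes thus had a log2 fold change of -0.45 (SE 0.83, edgeR adjusted p = 0.872, 95% interval -2.08 to 1.19). Slc1a7 had 37 and 31 counts in F2 naturals 3 and 4, 38 and 24 in F2 IVF 6 and 7, and at most 4 in each of the other 8 libraries, too few for the filter.

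The difference between the effects at 12 weeks in F1 and in F2 testes was tested in 1 fit of both tables. It passed for none of the 7 genes (lowest edgeR adjusted p = 0.608, for LOC108167969), where 0.209% of 22062 genes passed.

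Over the 32 adult testes, 4930401O12Rik was at 2.67 CPM or below in 7 libraries and at 12.2 CPM or above in 25. The 7 low libraries were the 4 naturals at 39 weeks, IVF 2 at 12 weeks and naturals 3 and 5 of F2, so that low libraries were found in both groups and at both ages. For Slc1a7, 15 libraries lay at 0.365 CPM or below and 17 at 1.07 CPM or above. For 4933427I22Rik the widest step was less clear, with 13 libraries at 0.817 CPM or below and 19 at 1.57 CPM or above. LOC108167731 had its widest step above the 4 naturals at 39 weeks, between 5.14 and 7.07 CPM. Gm7073 and LOC108167969 had no wide step.

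Slc1a7 and 4933427I22Rik are on the same chromosome, 31.9 Mb apart. In the 22 libraries of the 12-week and F2 tables, which did not choose the genes, 6 of the 7 libraries low in 4933427I22Rik were also low in Slc1a7 (85.7%), which are 54.5% of the 11 libraries low in Slc1a7. The 6 were naturals 3 and 4 and IVF 3 at 12 weeks and IVF 3, 4 and 5 of F2, of which F2 IVF 3 and 4 are the near-identical pair. 4930401O12Rik, low in 3 of the 22 libraries, was low together with 4933427I22Rik in none and with Slc1a7 in 1 (F2 natural 5). These counts are a description, and the libraries of a table share their preparation and scaling.

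**Figure D3:**
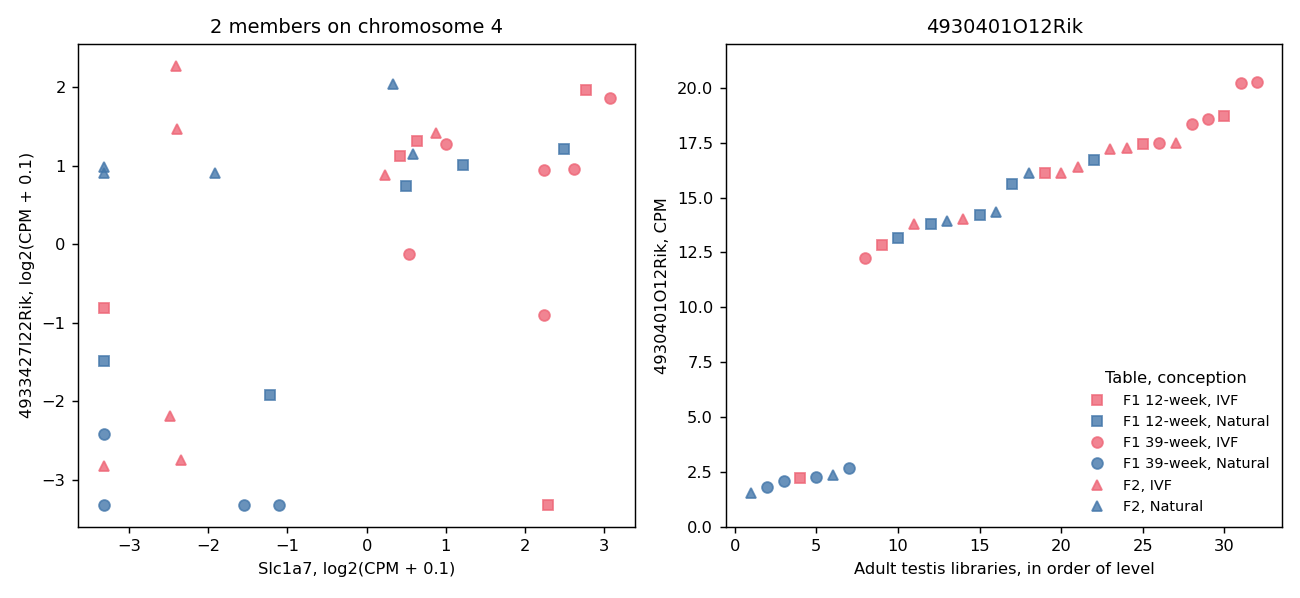
Left, level of 4933427I22Rik against that of Slc1a7 as log2(CPM + 0.1) in the 32 adult testis libraries, and right, level of 4930401O12Rik in CPM in the same libraries in rising order, with symbols for table and colours for conception. 4930401O12Rik has 7 libraries at 2.67 CPM or below and none up to 12.2 CPM. Among the 22 libraries of the 12-week and F2 tables, 6 of the 7 low in 4933427I22Rik are also low in Slc1a7. The other libraries shown chose the genes and are not counted in this.

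The 7 genes did not share a single pattern across libraries. Over the 22 libraries of the 12-week and F2 tables, with each group's mean removed from log2(CPM + 0.5), Pearson's r between pairs of the 6 genes that passed both filters ran from -0.54 (4930401O12Rik and Smim10l1) to 0.56 (LOC108167731 and LOC108167969). The genes most alike in the same measure, of 19967 compared, were Itgb4 (r = 0.80) for 4930401O12Rik, Commd4 (r = 0.82) for Smim10l1, Prame (r = 0.81) for LOC108167731, 4931400O07Rik (r = 0.80) for Gm7073, LOC102636380 (r = 0.93) for 4933427I22Rik and Gm17746 (r = 0.80) for LOC108167969. Being the highest of so many values, these r are high by choice. LOC102636380 is the gene that overlaps 4933427I22Rik on the other strand. It had 0 counts in the same 12-week libraries in which 4933427I22Rik was low (naturals 3 and 4, IVF 3 and IVF 5), and 6, 0 and 0 counts in F2 IVF 3, 4 and 5. At 39 weeks LOC102636380 had 0, 1, 2 and 0 counts in naturals and 12, 14, 4, 4, 0 and 44 counts in IVF testes. It was too low for the filter at that age, and whether the genes share reads was not tested. The first 2 genes most alike Gm7073 (4931400O07Rik and Stag2, r = 0.79, a cohesin subunit) are also on the X chromosome.

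Genes next to the 7 were examined at 39 weeks as well. Of the 42 nearest genes tested (3 on each side of each gene), none was a DEG at 39 weeks, where 0.00996% of all genes were, and 21 had a log2 fold change above 0 (median 0.02). All IVF libraries lay above all naturals in 2 of the 42, where 1.76% of all genes did so. These were Foxc1, which encodes a forkhead transcription factor and lies 565.6 kb from 4930401O12Rik (log2 fold change 1.40, SE 0.40), and Dcdc2c, 381.8 kb from LOC108167969 (0.44, SE 0.12). For Glrx2, which encodes a glutaredoxin and whose reads may be shared with LOC108167731, the log2 fold change was 0.49 (SE 0.17).

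No other gene of the SLC1 family or named Smim was a DEG in any of the testis tables, where 0.00996% (39 weeks) to 0.914% (F2) of all genes were. With so few DEGs at 39 weeks, lists this short would rarely hold any. Of the 5 other SLC1 genes tested at 39 weeks, none was a DEG. Slc1a2, the main glutamate transporter of glia, had 22.2 ± 3.99 CPM (SD, n = 4) and 24.4 ± 1.961 CPM (SD, n = 6) in the 2 groups, or 0.14 on the log2 scale (SE 0.14). Slc1a5, a transporter of neutral amino acids, had a log2 fold change of 0.24 (SE 0.21). Their median was 0.14, against 0.01 over all genes. Among 18 tested genes of glutamate synthesis, transport and signalling none was a DEG at 39 weeks. Grik3, a kainate receptor subunit, was the one of them that was a DEG, higher in IVF, both at 12 weeks (log2 fold change 1.36, SE 0.27, edgeR adjusted p = 0.0256, where 0.199% of all genes were DEGs) and in F2 testes (1.10, SE 0.23, edgeR adjusted p = 0.0213, where 0.914% were). At 39 weeks its log2 fold change was -0.44 (SE 0.48, edgeR adjusted p = 0.798). The list was chosen with earlier results of these data known, so Grik3 is no independent result on glutamate genes. Of the 19 other genes named Smim tested at 39 weeks none was a DEG, with a median log2 fold change of -0.16. Smim10l2a, a paralog of Smim10l1, had 15.1 ± 0.663 CPM (SD, n = 4) in naturals and 11.9 ± 1.16 CPM (SD, n = 6) in IVF testes, or -0.35 on the log2 scale (SE 0.14, edgeR adjusted p = 0.401), opposite in sign to Smim10l1.

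Outside adult testes, Smim10l1 alone passed the filter on low counts. In fetal testes the table held 5 of the 7 genes, LOC108167731 and LOC108167969 not being listed in it. Gm7073 had 0 counts in all 10 fetal libraries, 4930401O12Rik had 2 counts in 1 library, 4933427I22Rik had at most 3 counts in any library, and Slc1a7 had 2 to 20 counts, or 0.410 to 1.28 CPM. A count of 0 allows up to 3 counts, which is 1.03 CPM in the shallowest fetal library. In the 21 livers 4930401O12Rik and 4933427I22Rik had 0 counts in every library. LOC108167731 and Gm7073 had at most 2 counts in any liver, Slc1a7 at most 6 and LOC108167969 at most 5. In the 9 ovaries none of the 6 had more than 7 counts in a library. Transcripts of these 6 genes were thus at or near the detection limit in livers and ovaries.

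Smim10l1 was measured in every library of the series. In fetal testes it lay at 140, 95.6, 96.0 and 108 CPM in naturals and at 114 to 129 CPM (median 118.7) in IVF testes. Fetal groups had a log2 fold change of 0.13 (SE 0.10, edgeR adjusted p = 0.501) and overlapped. Of the 15406 genes tested in fetal testes 0.221% were DEGs, 17.7% had an unadjusted p under 0.05 and 3.51% had all IVF libraries above all naturals. In ovaries it lay at 108, 94.5, 98.2 and 101 CPM in naturals and 124, 123, 117, 112 and 97.6 CPM in IVF offspring. Ovaries had a log2 fold change of 0.19 (SE 0.08, edgeR adjusted p = 0.458). Of 16502 genes 0% were DEGs in ovaries by edgeR, 10.6% had an unadjusted p under 0.05, Smim10l1 among them, and 2.08% had all IVF libraries above all naturals.

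In F2 livers Smim10l1 differed between groups in both sexes, in opposite directions. Male livers had 84.0, 81.2, 95.03, 84.8 and 89.9 CPM in naturals and 132, 283, 198, 142 and 125 CPM in IVF offspring, so that all IVF libraries lay above all naturals. Male livers thus had a log2 fold change of 1.00 (SE 0.21, edgeR adjusted p = 0.00209). Of 11973 genes tested in male livers 31.1% were DEGs, and 10.7% had all IVF libraries above all naturals, so that Smim10l1 is 1 of many. Its log2 fold change was 0.75 without IVF 2 and 0.96 without IVF 3, the shallow library in which the gene had 82 counts, and stayed a DEG without either. IVF 2 and 3, with the highest levels, were also the shallowest IVF libraries (2137355 and 543745 counts, against 8240913 to 12624673 in the other IVF libraries). With all male livers thinned to the smallest library, not all IVF libraries lay above all naturals, and the log2 fold change was 0.94 (edgeR adjusted p = 0.00658).

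Female livers had 256, 145, 224, 178 and 212 CPM in naturals and 83.8 to 100 CPM (median 90.8) in IVF offspring, so that all 6 IVF libraries lay below all 5 naturals. IVF livers were lower, with a log2 fold change of -1.16 (SE 0.14, edgeR adjusted p = 2.3e-05). Of 12525 genes 39.4% were DEGs in this table, and 13.1% had all IVF libraries below all naturals. The female minus male difference of the log2 fold changes, from 1 fit of all livers, was -2.14 (SE 0.25, edgeR adjusted p = 1.08e-07), and 54% of 13073 genes passed this test.

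Naturals themselves lay at 87.0 ± 5.51 CPM (SD, n = 5) in males and at 203.0 ± 42.8 CPM (SD, n = 5) in females, in tables that were normalized separately. The summed level of 6 hepatocyte markers moved in the same directions. It was 73122 to 98480 CPM in male naturals and 90348 to 146027 CPM in male IVF livers, with 5 of 6 markers higher in IVF. In females it was 160664 to 245201 CPM in naturals and 105275 to 126537 CPM in IVF livers, with 1 of 6 higher. The part of such markers, and of the spermatid transcripts in male naturals 1 and 5, in the level of Smim10l1 was not tested. Without natural 1 the log2 fold change in males was 0.99, and without natural 5 it was 1.01.

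**Figure D4:**
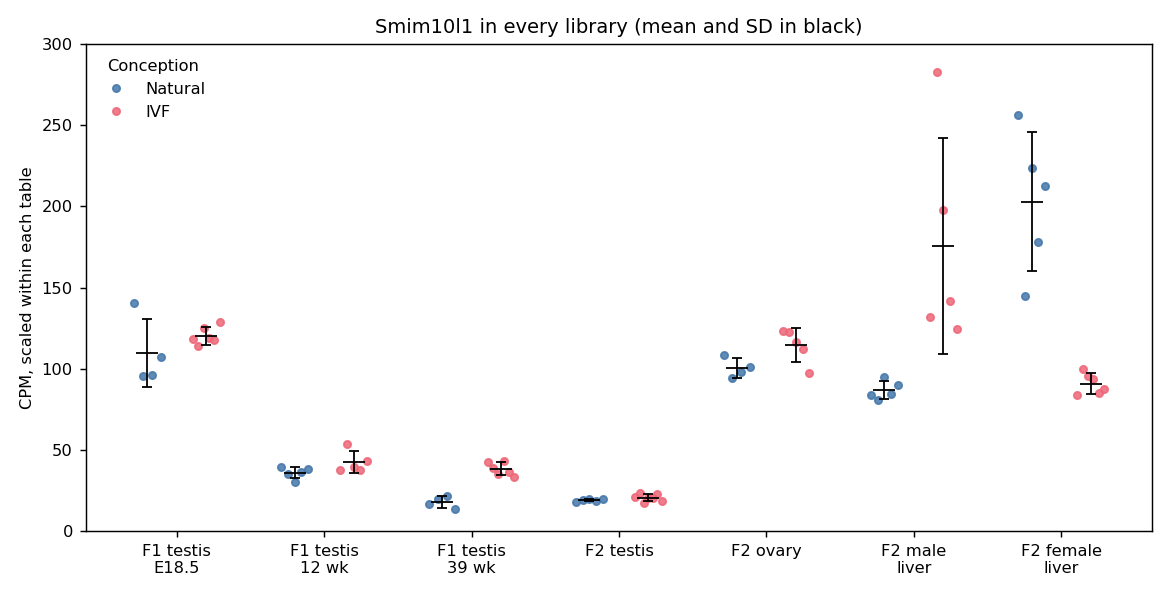
Level of Smim10l1 (vertical axis, CPM scaled within each table) in all 72 libraries by tissue, age and conception, where points are libraries and black bars are means with SD. Groups do not overlap in 39-week testes and in male livers, where IVF is higher, and in female livers, where IVF is lower, although the male liver groups were no longer apart once counts were thinned to the smallest library.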

How the data were processed

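RNA-Seq libraries were made from whole tissue with a stranded mRNA kit and sequenced as pairs. The authors deposited 1 table of counts for each tissue and age, as whole numbers of reads per RefSeq gene symbol without normalization. The submitters' processing notes list Trimmomatic 0.32, STAR 2.3.0e, featureCounts 1.5.0, DESeq2 and the mm10 build. The strand setting is not given in the sources used here. Between 60.8% and 94.6% of low counts were even, so both reads of a pair were counted in most cases.

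The 7 genes, the gene lists and the alternatives were chosen with earlier results of these data known. Within each table, genes were filtered by filterByExpr, scaled by TMM and tested with the robust quasi-likelihood fit of edgeR 4.0.16 in R 4.3.3 (IVF against natural, two-sided), with Benjamini-Hochberg adjustment over all genes of the table. The 12-week and F2 effects, and those of the 2 liver sexes, were compared by an interaction term. Standard errors were computed from the quasi-likelihood F. Genes named were the 7 genes, their 3 nearest tested genes on each side, the 3 genes most alike each of them, SLC1, Smim and glutamate genes, and Cpxcr1 and Gm732 beside the last gene of the list. Positions and promoter windows were taken from the RefSeq tables of GRCm38.p6, where 34863 of 35976 symbols were matched, and gene spans also from GENCODE M21. The values of 1 nearby gene are not reported here. Libraries were grouped by their labels, whose numbers of animals differ from those of the methods. The labels do not say whether replicate numbers pair animals, and none were treated as pairs (correlation of same-numbered libraries from -0.23 to 0.30). The fit was tested on simulated counts. Alternatives were DESeq2 1.42.0 and its size factors, other filters, no fold limit, thinned or halved counts, a replicate block, and 1 library left out in turn. Near-identical libraries averaged to 1 were added after the data were seen. Intervals and limits of counts of 0 cover counting error only.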

Additional observations from a re-analysis of the deposited data

Results flagged for a closer look

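By Dixon's test at the 95% level, 4 of 48 groups of 4 to 7 libraries held a library far from the others, where chance gives about 1 in 20. 4930401O12Rik had 12.2 CPM in IVF 4 at 39 weeks, below the other IVF testes but above every natural. 4933427I22Rik had 0.0872 CPM in natural 2 at 39 weeks, which is the only count among the 4 naturals. It also had 4.01 CPM in natural 4 of F2 testes, above the other naturals. Gm7073 had 12.7 CPM in natural 1 at 12 weeks, below the other naturals.

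The effect of IVF on Smim10l1 differed between female and male F2 livers, by -2.14 on the log2 scale in a test of the interaction. No cause was tested for any of these values.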

How the results depend on the processing

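Of 632 values recomputed under other settings, 621 kept their direction and their call or size. Among the 632 are the 39-week log2 fold changes and separations, whose direction follows from the choice of the genes, and counts of DEGs that were 0. The replicate block changed no call, and gave for example 0.94 for Smim10l1 in male livers and -1.12 in female livers. 1 of 32 libraries correlated best with the library of its own number, which cannot settle whether the numbers pair animals. Leaving out 1 library turned the sign of uncalled 12-week log2 fold changes. 4930401O12Rik ran from -0.28 to 0.15, LOC108167731 from -0.13 to 0.045, Gm7073 from -0.078 to 0.18, 4933427I22Rik from -0.0078 to 0.83 and LOC108167969 from -0.10 to 0.20, with the turned values without IVF 2 (4930401O12Rik, Gm7073 and 4933427I22Rik), natural 4 (LOC108167731) and natural 1 or IVF 5 (LOC108167969). The 39-week value of 4933427I22Rik was 6.83 with counts halved and 7.89 without natural 2. The number of genes with all IVF libraries above all naturals was 0 to 1 as 1 library was left out at E18.5 (1 without natural 1) and in ovaries (1 without IVF 5), and 0 in male livers with counts thinned to the smallest library. The causes were not tested. Depth limits 4933427I22Rik and Slc1a7, whose low libraries hold 0 to 17 counts, and the livers, where the shallowest library holds 543745 counts.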
